A study of Homo sapiens with 2 samples.

Results

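The 10 genes described here encode the proteins that make box C/D small nucleolar ribonucleoproteins (snoRNPs). Fibrillarin (FBL), NOP56, NOP58 and SNU13 are the 4 core proteins, and RUVBL1, RUVBL2, PIH1D1, RPAP3, ZNHIT3 and ZNHIT6 are the 6 assembly factors. They were chosen by symbol. All of their annotated transcripts were taken, 114 of the 197318 transcripts and 10 of the 57894 genes that matched the annotation. Total RNA had been sequenced from HEK293 cells, an established line from human embryonic kidney, as 2 libraries of the parental cells and 2 libraries of a LARP7 knockout line, which is the single clone 1-11. Differences of this clone and of the loss of LARP7 cannot be told apart. Both groups were grown in the same medium with no treatment, and one label of the knockout calls it wildtype where its title and genotype call it a knockout. No label says if the 2 libraries of a group are from different cultures. The p-values therefore rest on the spread between libraries, and that spread may be technical.

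Box C/D snoRNAs are short RNAs that guide methylation of the ribose in ribosomal and other RNAs. SNU13 binds the folded C and D boxes, NOP56 and NOP58 pair up as its scaffold, and FBL transfers the methyl group. The particle does not form unaided: the ring-shaped ATPases RUVBL1 and RUVBL2 join PIH1D1 and RPAP3 in the R2TP complex, a partner of the chaperone HSP90, and ZNHIT3 and ZNHIT6 bring core proteins and R2TP together. LARP7, best known for stabilising 7SK RNA, also binds the U6 snRNA and box C/D snoRNAs and helps the methylation of U6 by these particles. Several human snoRNAs also lie inside introns of NOP56 and NOP58, so that 1 transcript carries both the protein's message and a guide RNA.

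The deposited tables give for each transcript an estimated read number and a TPM, its abundance per length on a scale with a fixed total. Depth was 12851942 to 18483220 estimated reads per library, of which the 10 genes held 0.0907 to 0.106%. Parental replicate 2 was the shallowest library and had the shortest fragments, 207 bases by effective length against 217 in parental replicate 1 and 226 to 233 in the knockout. LARP7 itself had 59.8 and 46.5 CPM (reads scaled to a common library size) in the parental pair and 36.1 and 31.9 in the knockout. Lower in both knockout libraries, it still missed the threshold (log2 fold change -0.65, SE 0.16, edgeR adjusted p = 0.135). 7SK RNA had 98057 and 69038 reads in the parental pair and 2904 and 3457 in the knockout, and fell (log2 fold change -4.89, SE 0.12, edgeR adjusted p = 1.13e-06). All 7 HEK293 markers on a fixed list reached 1 CPM in every library, and their sum was 585 and 606 CPM in the parental pair and 637 and 638 in the knockout. One of them, the neurofilament gene NEFM, fell (log2 fold change -2.91, SE 0.22, edgeR adjusted p = 0.00164). Of 10 markers of other cell types, 3 had no read in any library, COL1A1 alone reached 1 CPM throughout, and the sums were 6.14 to 8.46 CPM. In bulk RNA, fewer cells expressing a gene and less RNA per cell cannot be told apart.

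With coding and non-coding transcripts summed, the core protein genes were the most abundant of the 10 per length. In TPM, the parental means were 145 ± 35.7 for NOP56, 126 ± 38.0 for NOP58, 112 ± 20.1 for FBL and 63.8 ± 11.6 for SNU13 (SD, n = 2). The assembly factors lay lower, with parental TPM of 38.5 ± 8.06 for RUVBL1, 26.7 ± 10.8 for RPAP3, 26.3 ± 5.19 for RUVBL2, 17.9 ± 1.39 for PIH1D1, 14.1 ± 3.30 for ZNHIT6 and 9.45 ± 2.03 for ZNHIT3 (SD, n = 2). In the knockout the means ran from 192 ± 27.1 TPM for NOP56 down to 14.0 ± 1.69 for ZNHIT3, in the same order except that ZNHIT6 (22.2 ± 0.1303) stood just above PIH1D1 (22.0 ± 0.621; SD, n = 2). Some neighbours in this order did not differ beyond their spread. In the parental libraries the values of NOP56 and NOP58, NOP58 and FBL, RUVBL1 and RPAP3, and RPAP3 and RUVBL2 overlapped. In the knockout those of NOP58 and FBL and of PIH1D1 and ZNHIT6 overlapped. TPM levels were not tested between the groups, because the TPM total includes small RNAs. These took 37.2 and 53.4% of TPM in the parental pair and 31.995 and 36.3% in the knockout. Parental replicate 2, with the largest small RNA share, had the lowest TPM of the 4 libraries for 9 of the 10 genes.

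No change with LARP7 knockout was called for any of the 10 genes at gene level. With edgeR's quasi-likelihood test over all genes, 0 of 10 passed an adjusted p of 0.05, beside 154 of 18484 genes in all (0.833%). At an unadjusted p under 0.05 the count was 1 of 10, beside 14.3% of all genes. DESeq2 called 0 of the 10 (2.48% of all genes) and limma voom called 0 (0.812%). The median log2 fold change of the 10 genes was -0.03, and that of all genes tested was 0.00. Their sizes were small: the median absolute log2 fold change was 0.20 for the 10 genes and 0.25 for all genes, with a median SE of 0.14 and 0.24. In simulated data of this size, edgeR recovered 45.3% of genes changed 2-fold and 75.3% of genes changed 4-fold. These rates are for genes at large and not for the 10 genes. For the 10 genes, the 95% intervals of the fold (knockout over parental) reached from 0.5567 for PIH1D1 to 1.595 for ZNHIT3. None of them included a 2-fold change, as far as the spread between libraries can tell. Smaller changes of these genes could have been missed.

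**Figure D1:**
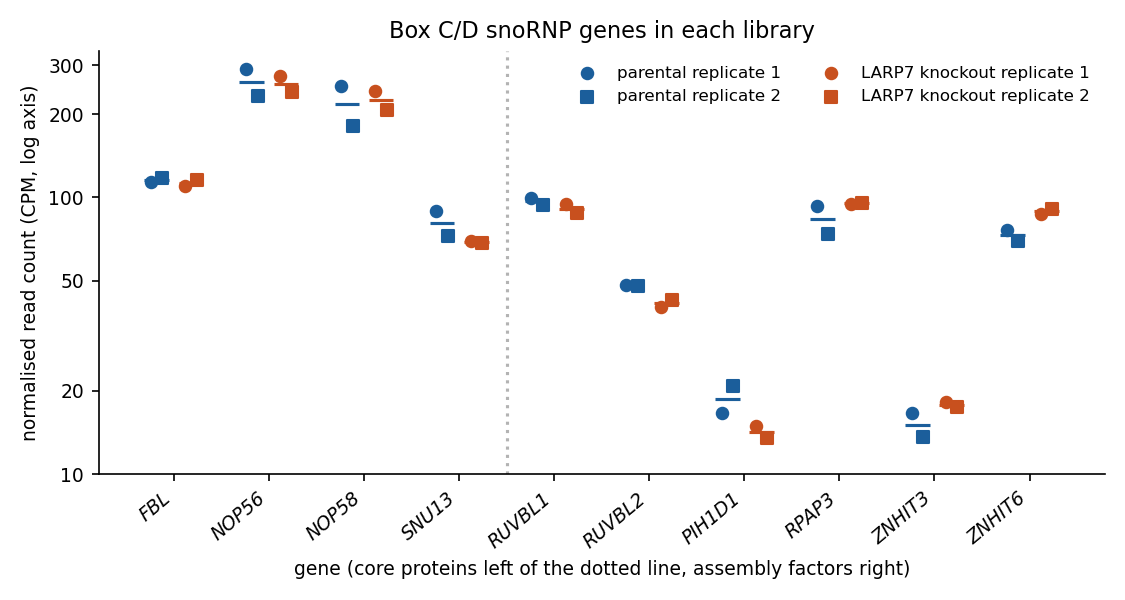
Normalised read counts (CPM, log axis) of the 10 box C/D snoRNP genes in each of the 4 libraries; points are libraries and short lines are the means of 2 libraries. NOP56 and NOP58 stand highest, and the parental pair of NOP58 (253 and 182 CPM) is farther apart than the 2 group means (217 and 224 CPM).

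Among the core proteins, 3 of 4 had overlapping groups. Of all genes, 23.5% had both knockout values above both parental ones, and 22.7% had both below. FBL (chromosome 19, 39834458 to 39846414, minus strand, GRCh38), the methyltransferase, had 114 and 118 CPM in the parental pair and 110 and 116 in the knockout. All 4 libraries lay within a narrow range, and the log2 fold change was -0.04 (95% interval -0.31 to 0.23, edgeR adjusted p = 0.926). NOP56 (chromosome 20, 2652145 to 2658393, plus strand) had 291 and 233 CPM in the parental pair and 274 and 241 in the knockout. Its parental values enclosed both knockout values, and the log2 fold change was -0.02 (95% interval -0.35 to 0.30, edgeR adjusted p = 0.964). NOP58 (chromosome 2, 202265716 to 202303666, plus strand), the paralog of NOP56 on the other side of the particle, had 253 and 182 CPM in the parental pair and 242 and 207 in the knockout. Here too the parental pair enclosed the knockout pair, with a log2 fold change of 0.04 (95% interval -0.34 to 0.43, edgeR adjusted p = 0.941).

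SNU13, the small RNA-binding core protein that is shared with the U4 snRNP, was the exception among the core genes. It lies on chromosome 22, 41673930 to 41690504, minus strand, and had 89.5 and 72.5 CPM in the parental pair and 69.7 and 68.3 in the knockout. Both knockout values were below both parental values, but parental replicate 2 was close to them. The log2 fold change was -0.23 (SE 0.14, 95% interval -0.55 to 0.09), short of the threshold (edgeR adjusted p = 0.502). Without parental replicate 2 it was -0.38 and did pass (edgeR adjusted p = 0.0227), in a fit that called 9.27% of all genes and took the spread from the knockout pair alone. Without parental replicate 1 it was -0.075 (edgeR adjusted p = 0.699), so the size of the difference rests on parental replicate 1.

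**Figure D2:**
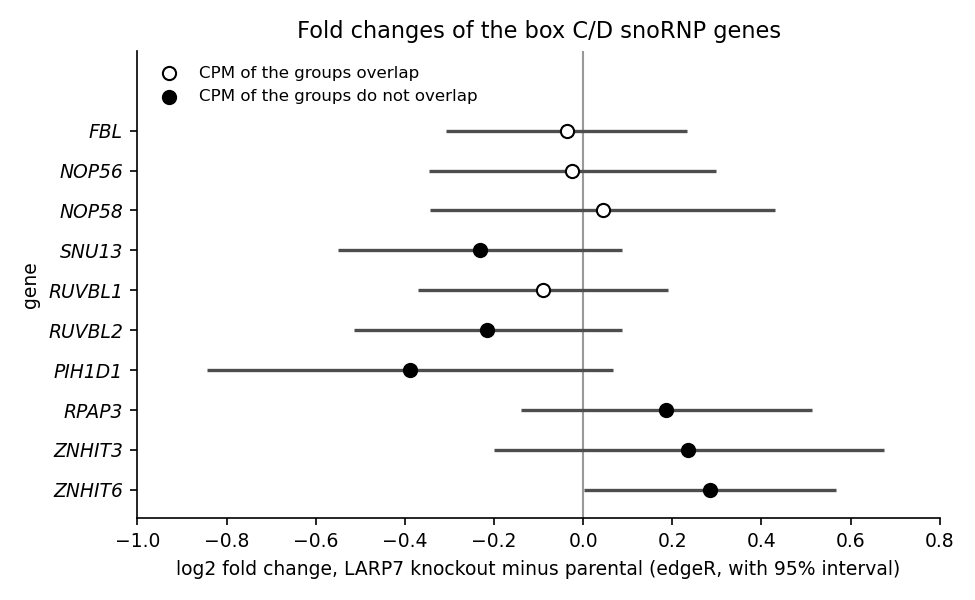
Log2 fold changes (LARP7 knockout minus parental, edgeR) of the 10 genes with 95% intervals; filled points mark genes whose CPM did not overlap between the groups. The intervals of 9 genes include 0, and that of ZNHIT6 runs from 0.00 to 0.57.

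The assembly factors went in both directions, and 5 of 6 had groups that did not overlap. Over all 10 genes, 3 were higher in both knockout libraries than in both parental ones, beside 23.5% of all genes, and 3 were lower, beside 22.7%. The higher ones were RPAP3, ZNHIT3 and ZNHIT6. The lower ones were SNU13, RUVBL2 and PIH1D1.

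ZNHIT6 (chromosome 1, 85649423 to 85708433, minus strand) is the assembly factor also known as BCD1. It had 76.5 and 69.8 CPM in the parental pair and 87.1 and 91.2 in the knockout. Each knockout value was above each parental one, the log2 fold change was 0.28 (SE 0.12, 95% interval 0.00 to 0.57), and its adjusted p of 0.347 (edgeR; unadjusted 0.0487) was the smallest of the 10 genes without passing. ZNHIT3 (chromosome 17, 36486629 to 36499310, plus strand), which stabilises a further assembly factor, NUFIP1, had 16.6 and 13.7 CPM in the parental pair and 18.2 and 17.5 in the knockout. Its log2 fold change was 0.24 (SE 0.19, edgeR adjusted p = 0.629), and 15.6% of its exonic bases overlap MYO19 on the opposite strand, whose reads cannot be told apart from it where strand was not used in counting. RPAP3 (chromosome 12, 47661249 to 47706061, minus strand), the scaffold of R2TP that contacts HSP90, had 93.1 and 73.9 CPM in the parental pair and 94.7 and 95.6 in the knockout. Parental replicate 1 was level with the knockout, and the log2 fold change was 0.19 (SE 0.14, edgeR adjusted p = 0.608). It was 0.03 when parental replicate 2 was left out (edgeR adjusted p = 0.929) and 0.36 when parental replicate 1 was (edgeR adjusted p = 0.0512). For ZNHIT3 the same left-out libraries gave 0.10 and 0.38 (edgeR adjusted p = 0.823 and 0.253).

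The remaining R2TP genes were lower or level. RUVBL1 (chromosome 3, 128064778 to 128153914, minus strand) had 99.9 and 94.1 CPM in the parental pair and 94.6 and 87.7 in the knockout. The groups overlapped, with a log2 fold change of -0.09 (SE 0.12, edgeR adjusted p = 0.794). RUVBL2 (chromosome 19, 48993448 to 49015995, plus strand) had 48.3 and 47.8 CPM in the parental pair and 40.2 and 42.7 in the knockout. Its groups were apart, but its log2 fold change was -0.21 (SE 0.13) and missed the threshold (edgeR adjusted p = 0.511). PIH1D1 (chromosome 19, 49446298 to 49453497, minus strand), the R2TP subunit that binds phosphorylated clients, had 16.6 and 20.8 CPM in the parental pair and 15.0 and 13.5 in the knockout. It had the widest interval of the 10 genes, -0.85 to 0.07, around a log2 fold change of -0.39 (SE 0.20, edgeR adjusted p = 0.428). An offset for transcript length brought it to -0.14 (edgeR adjusted p = 0.88), and leaving out parental replicate 2 brought it to -0.22 (edgeR adjusted p = 0.596). For 6 of the 10 genes the parental libraries differed from each other by more than the group means did.

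The ratio of partner genes within a library does not depend on the scaling between libraries. Gene TPM here sums coding and non-coding transcripts. By this sum NOP56 was above NOP58 in every library. The TPM ratios were 1.11 and 1.21 in the parental pair and 1.25 and 1.16 in the knockout. These overlapped, and the log2 ratio differed by 0.05 (two-sided exact permutation test p = 0.667). With estimated reads in place of TPM the difference was -0.08. RUVBL1 and RUVBL2 alternate in 1 ring in equal numbers as proteins, but the summed TPM does not measure this. Transcripts annotated without an intact coding product (defined below) held 5.803 to 13.63% of RUVBL1 TPM across the libraries. For RUVBL2 they held 67.73 to 76.77%, and a ratio of coding transcripts alone was not tested. By the sum, the RUVBL1/RUVBL2 ratios were 1.48 and 1.45 in the parental pair and 1.85 and 1.505 in the knockout. Both knockout ratios were the higher, by 0.19 on the log2 scale, at p = 0.3333, the smallest that a two-sided exact permutation test of 2 against 2 libraries can give. By estimated reads the groups overlapped. The difference was 0.04 without knockout replicate 1 and 0.34 without knockout replicate 2, so most of it came from knockout replicate 1.

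A large share of the TPM of these genes lay on transcripts annotated without an intact coding product, which here means retained introns, targets of nonsense-mediated decay (NMD, the pathway that destroys messages with an early stop) and other non-coding transcripts of the gene. Over the 10 genes this share was 40.4 and 45.4% in the parental pair and 43.3 and 42.2% in the knockout. All protein-coding genes together gave 16.6 to 18.9%. The groups of the 10 genes overlapped, and the difference was -0.11 percentage points (two-sided exact permutation test p = 1.000). Non-coding processed transcripts were the largest class, with 27.51 to 31.97% of the 10 genes' TPM, followed by retained introns (7.25 to 10.5%) and NMD targets (4.06 to 4.70%). Counted in estimated reads, which weight long coding transcripts more, the share was 25.3 and 29.2% in the parental pair and 25.3 and 24.7% in the knockout. By reads the groups did not overlap, though replicate 1 of each group was level at 25.25%. The difference was -2.26 percentage points (exact permutation test p = 0.3333, the smallest it can give). All protein-coding genes together gave 11.3 to 12.55% by reads.

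**Figure D3:**
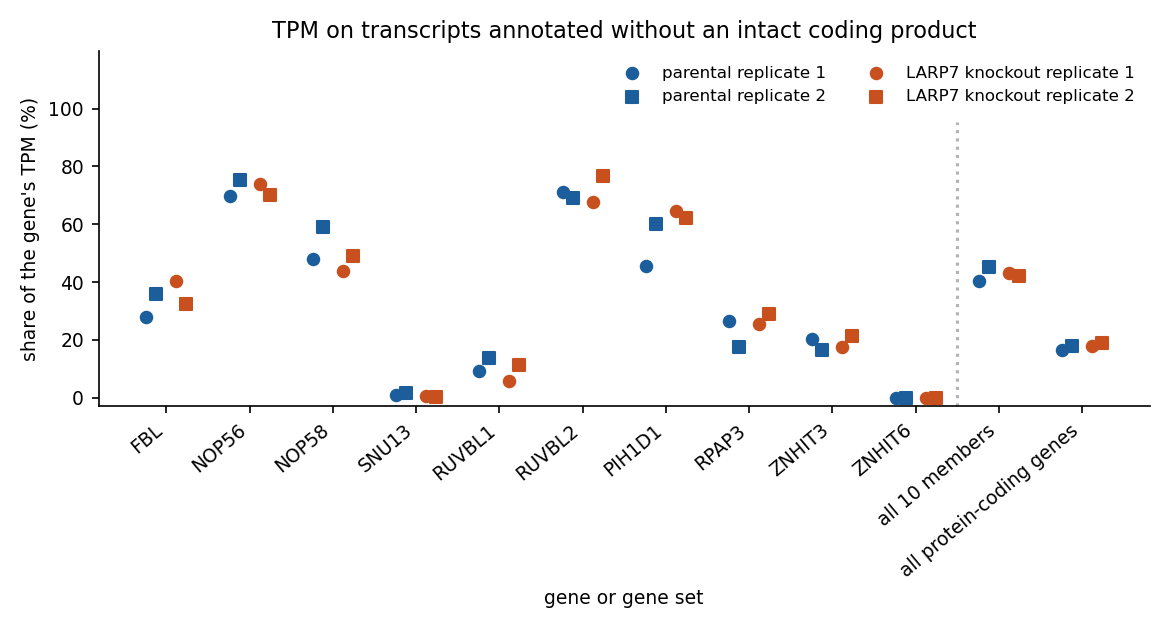
Share of each gene's TPM (%) on retained-intron, NMD-target and other non-coding transcripts, by library; the points right of the dotted line are the 10 genes together and all protein-coding genes. NOP56 and RUVBL2 lie between 67.7 and 76.8% in all libraries, while SNU13 and ZNHIT6 lie at or below 1.62%.

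The genes differed widely in this share. NOP56 had 69.8 and 75.2% in the parental pair and 73.8 and 69.9% in the knockout, and RUVBL2 had 71.0 and 69.0% against 67.7 and 76.8%. At the other end, ZNHIT6 had none, since both of its annotated transcripts are coding, and SNU13 had 0.992 and 1.62% in the parental pair and 0.403 and 0.233% in the knockout. PIH1D1 was the gene with the largest difference: 45.4 and 60.2% in the parental pair and 64.5 and 62.2% in the knockout. There, PIH1D1-224 held 18.77% (10.64 reads) in replicate 1 and almost none in replicate 2. PIH1D1-208 held 28.45% (25.56 reads) in replicate 2 and none in replicate 1. The gene had only 228 to 292 reads per library. Its groups did not overlap, although parental replicate 2 lay nearer to the knockout than to parental replicate 1 (two-sided exact permutation test p = 0.3333). Its full-length coding transcript PIH1D1-201 held 40.9 and 29.3% of the gene's TPM in the parental pair and 22.2 and 21.9% in the knockout, and no change of transcript usage was called in the gene (edgeR adjusted p = 1).

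Of the 114 transcripts, 95 had at least 1 read in some library, 62 passed the filter on low counts and 42 held at least 5% of their gene's TPM in 2 libraries. Those 42 carried 90.6 to 92.1% of the 10 genes' TPM. None of the 62 passed edgeR's test over all 54400 transcripts, where 0 (0%) passed, and 4 of the 62 had an unadjusted p under 0.05, beside 6.29% of all. In simulated data the same test recovered 4% of transcripts changed 4-fold and 35.7% of those changed 32-fold, so at this depth it could miss large changes. DESeq2 called 1 of the 62, RUVBL2-201, beside 1.45% of all transcripts, and limma voom called 0.

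By estimated TPM, the leading transcript was the same in all 4 libraries for 6 genes. RUVBL1-201, the coding transcript of 456 residues, held 84.3 to 88.0% of its gene, ZNHIT6-201 (470 residues) 74.2 to 77.2%, ZNHIT3-204 (155 residues) 55.0 to 81.4% and NOP58-201 (529 residues) 41.1 to 56.2%. RPAP3-203, coding for 506 residues, held 40.7 and 40.9% in the parental pair and 34.5 and 29.3% in the knockout. The longer RPAP3-202 (631 residues) held 12.7 and 16.7% against 18.5 and 19.6%. The non-coding RPAP3-204, with 420 bases and only 11.4 to 31.8 estimated reads per library, held 10.9 and 12.4% against 17.68 and 18.97%. These groups do not overlap, but RPAP3 did not pass the usage test (edgeR adjusted p = 1). For RUVBL2 the leading transcript by estimated TPM was an annotated NMD target, RUVBL2-208.

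For the other 4 genes the lead changed between libraries of one group. FBL-206 (244 residues) led FBL in parental replicate 1 with 37.2% of TPM and held 16.8% in parental replicate 2, 14.6 and 28.9% in the knockout, while full-length FBL-201 (321 residues) held 33.2 to 41.7%. The non-coding FBL-202 held 26.7 and 34.95% in the parental pair and 39.0 and 30.6% in the knockout. NOP56 was led in turn by its full-length message NOP56-201 (594 residues, 19.3 to 27.6%) and by NOP56-216, a non-coding transcript of 5 exons (17.6 to 27.8%) with an exon that contains the snoRNA SNORD86. NOP56-217, a non-coding transcript with SNORD110 in an exon, held 6.27 and 18.2% in the parental pair and 6.92 and 5.40% in the knockout, so parental replicate 2 stood apart from the other 3 libraries. NOP56-208, a non-coding transcript of 2 exons, had 5.47 and 6.22% in the parental pair and 9.34 and 13.3% in the knockout, or 119 and 87.3 against 200 and 238 estimated reads. Its log2 fold change was 0.93 (SE 0.27, unadjusted p = 0.0244), short of the threshold (edgeR adjusted p = 0.648). SNU13 had 2 coding transcripts that traded places, SNU13-202 (128 residues, 45.3 to 60.1%) and SNU13-204 (132 residues, 35.2 to 50.9%). Of the 42 transcripts, 11 had shares that did not overlap between the groups, beside 34.4% of such transcripts in all genes tested for usage.

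RUVBL2 was the 1 gene of the 10 whose transcript usage was called, beside 65 of 9475 genes in all (0.686%; edgeR diffSpliceDGE with gene-level Simes p, adjusted p = 0.0363). The transcript behind the call was RUVBL2-201 (ENST00000221413), an annotated NMD target that was listed at 0 estimated reads in both parental libraries and at 42.6 and 70.4 in the knockout. In TPM it stood at 1.70 and 2.76 in the knockout, which was 6.11 and 9.22% of the gene. Against a floor of 3 counts per library its mean of 3.37 CPM in the knockout was at least 16.5-fold higher, and the fitted usage difference was 6.19 on the log2 scale (unadjusted p = 3.75e-05). RUVBL2-201 met the minimum of 10 reads and 5% of the gene only through the knockout pair, so once in the test it had to differ, and the p-values are given as a description of these libraries. In the test of each transcript's level it missed the threshold (edgeR adjusted p = 0.59).

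RUVBL2-201 has the same internal exons as the coding transcript RUVBL2-206 (463 residues) except for exon 7, which is 96 bases long in place of 107. The 11 bases absent from it are chr19:49009872-49009882 (GRCh38, plus strand), the end of the coding exon 7, and no other annotated transcript of the gene has the short form. The end of exon 7 and the start of exon 8 are shown for both because the call rests on this difference, with the 11 bases in capitals:
RUVBL2-206: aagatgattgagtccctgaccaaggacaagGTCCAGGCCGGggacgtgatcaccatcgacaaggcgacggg
RUVBL2-201: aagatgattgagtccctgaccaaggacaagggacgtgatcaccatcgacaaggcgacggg

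Since 11 is no multiple of the codon length, the reading frame shifts, and the annotation places the stop of RUVBL2-201 in exon 10 of 15, at chr19:49011000-49011002, after 259 residues. The second NMD target, RUVBL2-208, differs in exon 4, which begins 70 bases further upstream (chr19:49004207-49004276) and is 212 bases long in place of 142. Its annotated stop, at chr19:49004234-49004236 and after 50 residues, lies within the added bases. The sequences around both stops are shown, with the stop codon in capitals; the second begins with the 70 added bases:
RUVBL2-201: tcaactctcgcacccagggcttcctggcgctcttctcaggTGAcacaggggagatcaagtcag
RUVBL2-208: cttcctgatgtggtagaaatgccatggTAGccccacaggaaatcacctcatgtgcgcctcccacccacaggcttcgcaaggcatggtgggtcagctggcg

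**Figure D4:**
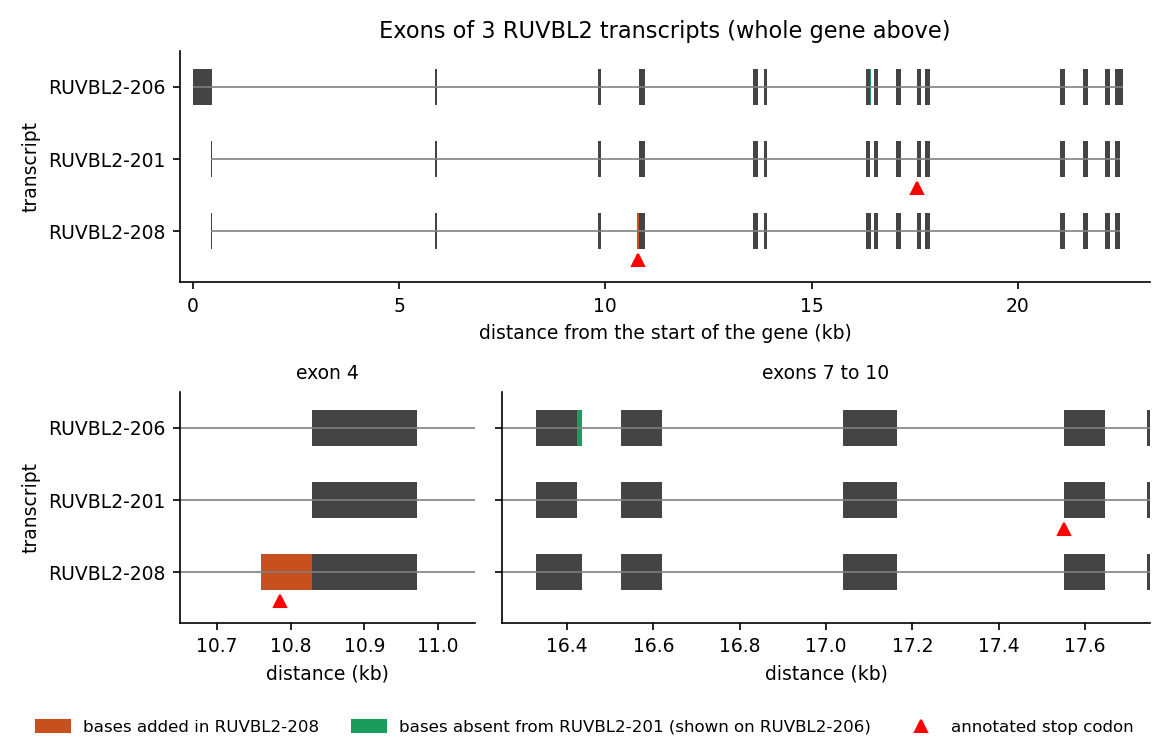
Exons of 3 RUVBL2 transcripts drawn by distance from the gene's start (kb), with the whole gene above and enlarged views of exon 4 and of exons 7 to 10 below; triangles mark annotated stop codons. The 70 bases added in RUVBL2-208 and the 11 bases absent from RUVBL2-201 are coloured.

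By estimated TPM, RUVBL2-208 held more of the gene than any other transcript in all 4 libraries. It stood at 12.8 and 10.5 TPM in the parental libraries (42.7 and 46.3% of the gene) and 11.4 and 12.7 TPM in the knockout (40.9 and 42.6%). Most of its exons are also exons of RUVBL2-201 and RUVBL2-206, so these shares rest on how the shared reads were divided. The coding RUVBL2-206 held 7.34 and 13.7% in the parental pair and 10.8 and 5.47% in the knockout. Together, RUVBL2-201 and RUVBL2-206, a sum chosen after the values were seen, held 7.34 and 13.7% against 16.9 and 14.7%, or 97.3 and 124 against 150 and 130 estimated reads. The shorter coding transcript RUVBL2-212 (354 residues) held 15.9 to 20.5%. RUVBL2-205, a retained intron near the 3′ end, held 11.5 and 10.3% in the parental pair and 2.12 and 5.16% in the knockout. These shares rest on 28.1 and 17.6 against 3.725 and 10.1 estimated reads.

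**Figure D5:**
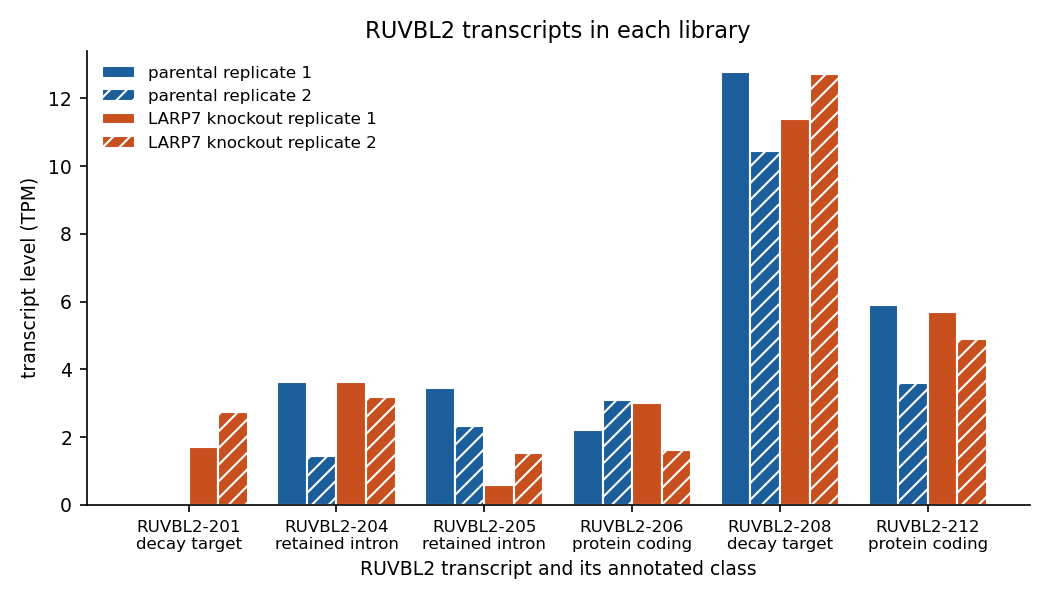
TPM of the 6 RUVBL2 transcripts with at least 5% of the gene's TPM in 2 libraries; each bar is 1 library. RUVBL2-201 has no bar in the parental pair and reaches 1.70 and 2.76 TPM in the knockout, and RUVBL2-208 is the tallest group throughout. Heights compare transcripts within a library, since small RNAs took unequal shares of TPM between libraries.

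The RUVBL2 call did not hold under several settings. Its adjusted p was 0.0701 without parental replicate 1, 0.0744 without parental replicate 2 and 0.701 with limma voom and diffSplice in place of edgeR. Without knockout replicate 1 or replicate 2, RUVBL2-201 no longer met the minimum in 2 libraries and left the test, and the gene's edgeR adjusted p was 1. Reads shared by RUVBL2-201 and RUVBL2-206 were divided by Salmon's estimate, an error that the test does not see, and reads over the exon 7 junction itself were not analysed here. In simulated data the usage test recovered 28% of 100 genes in which the 2 leading transcripts had been swapped. No minimum difference between the 2 was set, so some of the swaps may have changed little. No usage change was called in the other 9 genes, at an edgeR adjusted p of 1 in each.

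NOP56 and NOP58 contain 9 annotated snoRNA genes on their own strand, the guides around which these same proteins assemble. NOP56 holds 5 (SNORD110, SNORA51, SNORD86, SNORD56 and SNORD57) and NOP58 holds 4 (SNORD70, RF00575, SNORD11B and SNORD11). In NOP56, 4 of the 5 also lie inside an exon of some annotated transcripts, SNORD110 in 1, SNORD86 in 5, SNORD56 in 2 and SNORD57 in 2, so that reads can be divided between guide and host. Exons of other annotated transcripts cover part of 2 more, with 102 bases of SNORA51 in NOP56 exons and 62 of the 85 bases of RF00575 in NOP58 exons. SNORA51 belongs to the H/ACA class, which other proteins bind, and the remaining 8 are of the C/D class. The 2 members with a mean of at least 10 reads, RF00575 and SNORD70, and SNORD110 from NOP56 are shown with the C box letters TGATG and the D box letters CTGA in capitals (plus strand, GRCh38):
SNORD70: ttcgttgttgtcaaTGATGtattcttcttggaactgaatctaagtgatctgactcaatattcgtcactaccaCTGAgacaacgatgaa
RF00575: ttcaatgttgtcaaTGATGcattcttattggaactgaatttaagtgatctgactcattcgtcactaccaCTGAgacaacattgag
SNORD110: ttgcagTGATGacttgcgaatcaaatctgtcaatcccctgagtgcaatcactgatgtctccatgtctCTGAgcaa

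SNORD70 (chr2:202276431-202276518) and RF00575 (chr2:202278108-202278192) lie in neighbouring parts of NOP58 and differ by 11 single-base edits over 88 and 85 bases, with a longest shared run of 24 bases, so reads can be split between them. SNORD110 is at chr20:2654212-2654286. Among 288 genes with SNORD names in the tables, 83.3% hold TGATG within the first 25 bases and 94.4% hold CTGA within the last 25. Only the RNA strand was searched, and a match is a description of the letters.

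The snoRNAs were thinly covered. SNORD70 had 16 and 33 reads in the parental pair and 8 and 9 in the knockout, and RF00575 had 10 and 19 against 8 and 8. Both were lower in the knockout. SNORD70 was the 1 of the 9 that passed the filter, and it did so only through the parental pair. Its fold changes and p-values are therefore given as a description of these libraries. The log2 fold change was -1.78 (SE 0.71) and missed the threshold (edgeR adjusted p = 0.31). Without parental replicate 1 it was -2.38 and passed (edgeR adjusted p = 0.0442), in a fit that called 11.4% of all genes. Without parental replicate 2 it was -0.86 (SE 1.02, edgeR adjusted p = 0.696). Of the others, SNORD110 had at most 9.62 reads, SNORA51 at most 3, SNORD11 and SNORD11B at most 1, and SNORD86, SNORD56 and SNORD57 had none in any library. All 9 together had 33.4 and 65.6 reads in the parental pair and 21 and 24 in the knockout. The 80 snoRNA and scaRNA genes tested, of 992 in all, had a median log2 fold change of -0.95, with 0 called by edgeR. The filter can admit a gene through either pair alone, so this median does not describe small RNAs at large. The share of all reads on snoRNAs and scaRNAs overlapped, at 0.2255 and 0.3324% in the parental pair and 0.2039 and 0.2641% in the knockout. Fragments were longer in both knockout libraries, and the part of fragment length in these values was not tested. The host gene NOP58, in contrast, stood at a log2 fold change of 0.04 at gene level, with groups that overlapped.

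Other genes could share reads with the 10. FBLL1, a paralog of FBL, and the pseudogenes NOP56P1, NOP56P2 and NOP56P3 together had 38.1 and 23 reads in the parental pair and 40 and 47 in the knockout, few beside the 11654 to 19324 reads per library of the 10 genes. Overlaps with genes on the opposite strand covered 5.01% of the exonic bases of RUVBL1 with SEC61A1, 5.39% with EEFSEC, and 4.56% of PIH1D1 with ALDH16A1.

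The genes that work beside these proteins were read from 7 lists with 67 genes, all of them tested. With edgeR, 0 of 67 were called (4 by unadjusted p; DESeq2 and limma voom each called 0), beside the 0.833% of all genes given above, and the median log2 fold change was 0.02. The call depended on the parental libraries. Without parental replicate 1, 12 of the 67 rose and 2 fell, and without parental replicate 2, none rose and 12 fell, in fits that called 11.4% and 9.27% of all genes.

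Among the H/ACA snoRNP genes, which make the sister particle that guides pseudouridylation, 0 of 6 were called and the median log2 fold change was -0.09. The smallest p-values belonged to the assembly factors NAF1 (-0.14) and SHQ1 (-0.12) and the core protein GAR1 (-0.14). Among 15 partners of HSP90 and R2TP, 0 were called and the median was 0.07. TTI2, a subunit of the TTT complex that brings kinases related to phosphatidylinositol 3-kinase to R2TP, had 108 and 247 CPM in the parental pair and 60.1 and 82.9 in the knockout. The parental values lay far apart, and its log2 fold change was -1.31 (SE 0.33), short of the threshold (edgeR adjusted p = 0.136). It passed with each library left out, with log2 fold changes from -0.60 without parental replicate 2 to -1.79 without parental replicate 1 and edgeR adjusted p from 4.25e-07 to 0.00427. TELO2, its partner, stood at -0.42, and the chaperone HSP90AB1 at -0.27.

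Of 8 further assembly and transport genes none was called (median 0.08), with the nucleolar phosphoprotein NOLC1 at -0.25, the export adaptor PHAX at 0.30 and the cap methyltransferase TGS1 at 0.19. The U3 snoRNP and small subunit processome, where the U3 box C/D snoRNA works on the ribosomal precursor, had 0 of 16 called and a median of 0.11, and 12 of the 16 lay above 0. Its smallest p-values were those of WDR43 (0.20), RRP9 (-0.32) and MPHOSPH10 (0.25). Among 4 partners of SNU13 in the U4 snRNP (median -0.02), PRPF4 was at 0.42, PPIH at -0.30 and PRPF31, which binds SNU13 on U4, at -0.20.

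RUVBL1 and RUVBL2 are also subunits of chromatin remodellers, and none of 13 genes of those complexes was called (median -0.06). EP400, the motor of the TIP60 complex, had 164 and 165 CPM in the parental pair and 129 and 114 in the knockout, with a log2 fold change of -0.44 (SE 0.12, edgeR adjusted p = 0.164). ACTR5, a subunit of INO80, had 12.6 and 10.5 CPM against 17.9 and 17.6, with a log2 fold change of 0.61 (SE 0.20, edgeR adjusted p = 0.218), and ACTR8 stood at -0.34. Both EP400 and ACTR5 had groups that did not overlap, but they were named for their small p-values. Of all genes, 22.7% were lower without overlap, as EP400 was, and 23.5% were higher, as ACTR5 was. Of 5 nucleolar and RNA polymerase I genes none was called (median -0.03), with POLR1A at -0.21, POLR1B at 0.19 and the transcription factor UBTF at 0.21.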

How the data were processed

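Total RNA was sequenced in 2 parental and 2 LARP7 knockout HEK293 libraries. The deposited tables, per the file headers, give the authors' estimated counts (reads that need not be whole), TPM and effective length of each transcript; effective length served for the fragment length and a length offset. Per the submitters' processing notes, Salmon 1.6, edgeR 3.24.3, STAR 2.5.3a, R 3.5.1, R 3.3.3, SAMtools 1.3.1, cutadapt 1.6 and Picard were used with build hg38. The annotation and the strand option are unstated: not given in the sources used here. Ovation SoLo was the kit, per the labels' protocols.

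Transcripts were joined to GENCODE v29 (GRCh38); 684 of 198002, with 0.0631 to 0.0711% of reads, did not match. Per gene, the estimated counts were added up, rounded and tested with edgeR 4.0.16 in R 4.3.3 (filterByExpr, TMM factors, quasi-likelihood test, knockout minus parental, Benjamini-Hochberg adjustment over all features). SEs are log2 fold changes over the root of F. CPM uses TMM-scaled totals. Usage was tested with diffSpliceDGE on transcripts with at least 10 reads and 5% of their gene in 2 libraries. Shares and ratios used exact permutation tests, which cannot go below 0.3333. Alternatives used DESeq2 1.42.0 and limma 3.58.1, other scalings and filters, a block for replicate number, and leaving out each library. The steps were tested on simulated data: 3 simulations over 17916 genes or 48605 transcripts, and 1 over 9475 genes for usage.

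Named were all 10 genes, their transcripts with at least 5% of the gene's TPM in 2 libraries, snoRNAs inside them with a mean of at least 10 reads, related copies summed, LARP7 and 7SK, and the 3 smallest p-values of each other list. Not every transcript above that 5% is described. The other snoRNAs and the sum of RUVBL2-201 and RUVBL2-206 were chosen after their values were seen, as was the 7SK entry, which holds the reads of 2 entries at 1 locus. Members, lists and tests were chosen with earlier results of these data known. Sequences come from the GENCODE v29 transcripts. Floors cover counting error only.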

Additional observations from a re-analysis of the deposited data

How the results depend on the processing

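Replicate numbers were shared between the groups without a stated pairing, and with 2 pairs they are only a number (correlation of deviations 0.133). With a replicate block, 0 of the 10 genes were called of 1656 in all, 0 had changed usage (RUVBL2 adjusted p 0.316, edgeR), and 4 pathway genes were called: ACTR5, EP400, PRPF4 and TTI2. Without the filter on low counts 1 pathway gene, TTI2, was called. Leaving out each library gave 0 to 1 of the 10 genes called (1 being SNU13), 0 to 0 with changed usage, 0 to 1 intronic snoRNA, and 1 to 14 pathway genes. Changed usage was also 0 with voom and with a minimum of 10% of the gene, which RUVBL2-201 does not reach in 2 libraries; with 5 or 20 reads or 1% the adjusted p was 0.0264 to 0.0348. DESeq2 called 1 transcript. The non-coding share differed by -2.60 to 2.39 points with a library left out, being 2.39 when parental replicate 2 was left out and 0.42 when knockout replicate 2 was; the NOP56/NOP58 log2 ratio by -0.005 to 0.11, with -0.077 by reads. With library size alone the signs of FBL (0.055), NOP56 (0.069) and RUVBL1 (0.003) turned, as the median of all genes moved to 0.095. With the length offset NOP56 was 0.007 and NOP58 -0.054. With a library left out, FBL ran from -0.070 to 0.002, NOP56 from -0.177 to 0.140 (0.070 without knockout replicate 2) and NOP58 from -0.178 to 0.299 (-0.072 without knockout replicate 1). The cause of these changes was not tested. Of 140 alternative values for the 10 genes, 129 kept direction and side of the threshold, 10 reversed, and SNU13 passed once. Of the 9 snoRNAs inside the 10 genes, 1 had enough reads to be tested.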
